A study of Mus musculus with 4 samples.

Results

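Endothelial cells of the aorta that lacked Oct4 were compared with wild-type aortic endothelial cells, each genotype as 1 pooled single-cell RNA library. Cells were selected by measured values. A barcode was kept with at least 500 UMIs (unique molecular identifiers, the counted molecules), at most 15% mitochondrial UMIs and UMIs of at least 2 of 8 endothelial genes (Pecam1, Cdh5, Egfl7, Cldn5, Kdr, Tie1, Emcn, Esam), provided that it had no UMI of the leukocyte gene Ptprc and UMIs of fewer than 2 of 4 lymphatic genes (Ccl21a, Mmrn1, Lyve1, Reln). This left 350 of 449 wild-type and 1372 of 1623 knockout barcodes, 1722 of the 3401 barcodes of all 4 libraries. At the edge of the endothelial criterion, 27 wild-type and 46 knockout cells were kept with exactly 2 of the 8 genes, and 10 and 31 barcodes with 1 gene were left out.

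All groups came from female C57/B6J Apoe knockout mice that carried an endothelial lineage tracer and ate a Western diet for 5 weeks. Wild-type tissue was taken from 2 mice and knockout tissue from 3, and the labels assign no barcode to a mouse. Arch, thoracic and abdominal aorta were digested with 1 µg/mL actinomycin D, an inhibitor of transcription, in every solution. Cells positive for eYFP were sorted, with littermates negative for Cdh5 setting the gate. The left lung lobes of the 2 genotypes gave another pair of libraries, selected here in the same way (700 wild-type and 462 knockout cells).

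Oct4, encoded by Pou5f1, is a transcription factor of the POU family best known for holding early embryonic cells in the pluripotent state, and its octamer motif occurs in many regulatory sequences. The endothelium is the single layer of cells that lines vessels. It controls the passage of solutes, handles circulating lipids, meets the shear of flowing blood, and on activation displays adhesion molecules and antigen-presenting proteins to leukocytes.

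Depth was 872575 UMIs in the wild-type and 3920568 in the knockout aortic cells, with medians of 2144 and 2370.5 UMIs per cell. No wild-type cell had a Pou5f1 UMI, which allows up to 0.857% of the 350 cells to have a UMI (exact upper limit 1.05%), and 1 of 1372 knockout cells had 1. At this depth a cell with Pou5f1 RNA can show no UMI, so this is no limit on the cells that express it. Counts of 3′ ends do not show a deletion, so Pou5f1 did not check the genotype labels. The endothelial genes that defined the cells summed to 7690 and 7487 CPM in the wild-type and knockout libraries (CPM, counts scaled to 1000000 UMIs of the selected cells). Pecam1 had a UMI in 93.7% and 95.8% of cells and Cdh5 in 67.4% and 68.2%. Kdr, the VEGF receptor, was found in only 10% and 9.40%. Markers of other cells were present in both libraries. Together the 11 fibroblast markers had 867.5 and 1673 CPM, of which Dcn had 72.2 and 731.3 and Lum 0 and 94.9, and the other 9 markers 795.4 and 846.8 CPM. There were 140 and 666 cells with 2 or more markers of 1 other cell type, and 124 and 620 cells had 2 or more fibroblast markers. Among these markers Mfap5 had a UMI in 32.9% and 38.6% of cells, Gsn in 29.4% and 33.4%, and Pi16 in 27.7% and 35.4%. Whether cells with these genes are mixed was not tested, so leaving them out is no check of purity. The 10 smooth muscle markers had 505.4 and 764.4 CPM, wild-type before knockout as in every pair of values that follows. Of the 1899 knockout Acta2 UMIs 591 were in 1 cell, and Acta2 had a UMI in 13.1% and 11.5% of cells. The erythroid markers summed to 2787 and 9.44 CPM, with 2409 of the 2425 wild-type haemoglobin UMIs in 1 cell. B cell markers were at 0 in the wild-type library and macrophage markers summed to 9.17 and 20.4 CPM. The 2 aortic libraries shared 2 barcodes.

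For each gene, UMIs were summed over the cells of a library, without the cell that had most UMIs of that gene, and divided by all UMIs of the cells that remained. A ratio of knockout over wild-type CPM is given with an exact 95% interval that covers counting error only. Each genotype was 1 library, so no difference has a replicate check and no test was made. Among 2890 genes with a mean of at least 50 CPM, the knockout level exceeded the wild-type one by 1.5-fold or more in 123 (4.26%) and fell short of it by that much in 60 (2.08%), and 93.7% lay within 1.5-fold. These 2 sets are called the higher and the lower genes. The median log2 ratio of all measured genes was 0.06. At the threshold, Tnfsf12 (1.502-fold) was just inside and Pkn2 (1.5-fold, just under it before rounding) just outside on the higher side. On the lower side Wdr89 (ratio 0.665) was inside and Ap2a2 (0.673) outside. Of the genes past the threshold 67.2% were higher, against 52% when every cell was kept (89 higher, 82 lower) and 55.6% when the same share of cells was left out of both libraries (89 higher, 71 lower). Every cell was also thinned to 1000 UMIs, which kept 293 wild-type and 1267 knockout cells and left out 57 and 105 shallower ones. The share of cells with a UMI then differed in the same direction for 121 of the 123 higher and all 60 lower genes. Thinned counts are drawn from the same UMIs that picked these genes, so this is no separate check. After thinning, the share was higher in the knockout for 56.1% of all measured genes. Of the genes picked by rule to be named, 34 were higher and 21 lower, and 15 and 13 of these stayed past 1.5-fold under all 11 alternative settings in which they had a finite ratio.

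**Figure D1:**
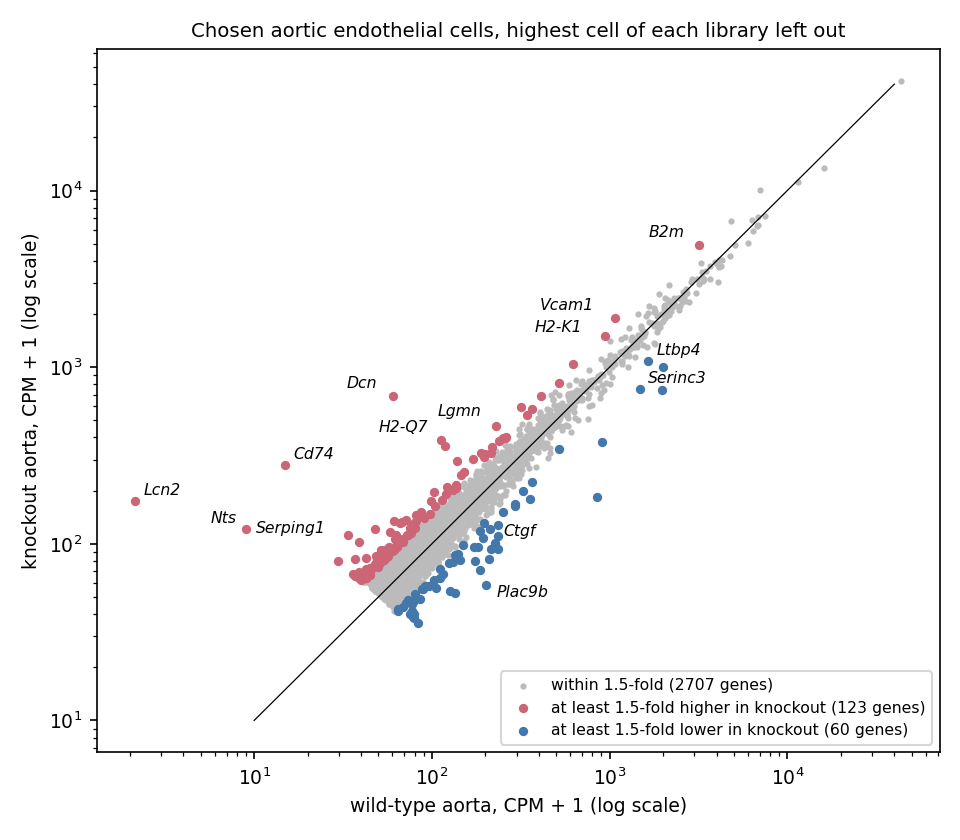
CPM + 1 of each measured gene in the wild-type aorta (horizontal, log scale) and the knockout aorta (vertical, log scale), 1 point a gene, with the line of equal values. Most points follow the line; Lcn2, Cd74, Nts and Dcn stand farthest above it and Plac9b, Ctgf and Serinc3 lie below it.

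Genes of MHC class I, whose products show peptides from inside the cell to cytotoxic T cells, stood among the clearest differences. H2-Q7, a non-classical class I heavy chain, was at 111.7 and 385.1 CPM, 3.45-fold (2.80 to 4.28). Its neighbour H2-Q6 was at 117.6 and 354.8 CPM, 3.02-fold (2.47 to 3.73). The classical heavy chain H2-K1 was at 942.8 and 1506 CPM, 1.60-fold (1.48 to 1.72), and the shared light chain B2m at 3183 and 4890 CPM, 1.54-fold (1.48 to 1.60). With every cell kept H2-K1 was at 1.49-fold and B2m at 1.43-fold, both under the threshold, and with 7 clusters of like cells weighted equally B2m was at 1.45-fold. The other classical heavy chain, H2-D1, lay within 1.5-fold at 3281 and 3901 CPM. H2-T23, which encodes Qa-1, the ligand of an inhibitory receptor of natural killer cells, was lower, at 140.1 and 86.6 CPM (1.62-fold lower, 1.31 to 2.00). Class I heavy chains are close copies of each other. In H2-Q6, 49.4% of the last 300 transcript bases could be read as another gene, and in H2-Q7 none. By this measure the level of H2-Q6 is the uncertain one. Sequence before these bases was not compared, so how reads divide between the Q genes is not known.

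The short promoter stretches of these genes are shown because the 3 class I heavy chains past 1.5-fold on the higher side, and H2-D1, share 2 elements there. They are read 5′ to 3′ on the coding strand from the RefSeq promoters of GRCm38.p6, and capitals mark a kappa B element (GGGATTCCC) and an interferon-type element (TTTCACTTC).
H2-Q7, chr17:35439011-35439062, plus strand: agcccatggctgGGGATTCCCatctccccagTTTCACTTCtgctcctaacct
H2-Q6, chr17:35424666-35424718, plus strand: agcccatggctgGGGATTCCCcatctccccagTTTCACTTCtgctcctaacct
H2-K1, chr17:34000417-34000469, minus strand: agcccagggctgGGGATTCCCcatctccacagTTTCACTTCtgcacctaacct
H2-D1, chr17:35262912-35262964, plus strand: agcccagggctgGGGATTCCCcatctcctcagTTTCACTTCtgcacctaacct
Both elements were searched on both strands, also as GGGAATCCC and GAAGTGAAA, and do not overlap each other. They were picked after the promoters of the class I genes had been read. The interferon-type element stood in 0.596% of the 27025 promoters of the table (250 bases before to 50 after the start) and the kappa B element in 0.414%. Of the 123 higher genes 90 had a promoter in the table. The interferon-type element was in 3 of them (H2-K1, H2-Q6, H2-Q7) and the kappa B element in 4 (the same 3 and Derl2). Promoters of 41 lower genes were present, of which 0 held the interferon-type element and 2 the kappa B element (Csrnp1 and Pnpla2), 4.88% against 4.44% of the higher genes. H2-T23, the lower class I heavy chain, held neither. B2m, which was higher, also held neither. H2-D1 carries both elements and was within 1.5-fold. The class I heavy chain H2-Q4 holds the interferon-type element and was within 1.5-fold at 249.1 and 270.0 CPM. The Oct4 octamer ATGCAAAT, searched likewise also as ATTTGCAT, was in 1.97% of all promoters, in 1 of the 90 higher genes (Zfp207) and in 0 of the 41 lower genes.

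The class I differences were spread over many cells. After thinning, H2-Q7 had a UMI in 12.6% of wild-type and 29.1% of knockout cells (22.3% and 51.5% before thinning), and H2-K1 in 55.3% and 71.3% (76.9% and 88.3% before). Among 7 and 25 barcodes left out as smooth muscle-like, with median depths of 1081 and 4283 UMIs, H2-Q7 had a UMI in 0 and 0 and H2-K1 in 1 and 11. The cells were clustered with both libraries together, and 7 of 10 clusters held at least 20 cells of both. Clusters 7, 9 and 10 did not, and are left out wherever clusters are weighted alike. H2-Q7, H2-Q6, H2-K1 and B2m were higher in the knockout in all 7 compared clusters. In the cluster with the smallest ratio for H2-Q7 the levels were 199.0 and 368.6 CPM, and in the most numerous wild-type cluster 136.3 and 437.2 CPM. Of the 123 higher genes 74 were measured in all 7 clusters, and 22 were higher in all 7. Among all measured genes 3.01% were higher in all 7. The 123 genes were picked in these same cells, so a larger share among them is no separate support.

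Of 24 class I and peptide-loading genes 18 were measured. Higher by at least 1.5-fold were 4 (22.2%, against 4.26% of all measured genes) and lower was 1 (5.56%, against 2.08%). The log2 ratio was above 0 for 15 of the 18, with a median of 0.27 against 0.06 for all measured genes. The peptide transporter Tap2 was at 96.6 and 129.8 CPM, and the immunoproteasome subunit Psmb9 at 78.0 and 99.6 CPM, both within 1.5-fold. The loading factor Tapbp was nearly level at 236.3 and 257.5 CPM.

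MHC class II genes, which show peptides taken up from outside the cell, had larger ratios that depended on 1 wild-type cell. Cd74, the invariant chain that escorts class II molecules, was at 14.0 CPM in the wild-type (12 UMIs) and 277.0 CPM in the knockout (1084 UMIs), 19.8-fold (11.3 to 38.5), with the highest cell of each library left out. With every cell kept the ratio was 1.94, since 1 wild-type cell held 117 Cd74 UMIs, 90.7% of that library's. The same cell was the deepest of the wild-type library (13444 UMIs). It held 36 H2-Aa, 39 H2-Ab1, 25 H2-Q7, 185 Vcam1 and 95 Ccl5 UMIs, 6 of the 8 endothelial markers and no Ptprc. H2-Aa was counted 2 times in the other wild-type cells and 221 times in the knockout, a ratio of 24.2 (6.63 to 201), which was 1.35 with every cell. H2-Ab1 was at 9.31 and 61.3 CPM, 6.59-fold (3.29 to 15.4), or 1.19-fold with every cell. The shares of cells are less bound to that cell. Cd74 had a UMI in 3.07% of thinned wild-type and 12.2% of thinned knockout cells (3.14% and 19.1% before thinning), and in none of the 7 and 25 smooth muscle-like barcodes. Ciita, the regulator of class II genes, had 0 and 6 UMIs in all. Lgmn, a lysosomal protease that trims class II antigens, was at 227.2 and 461.8 CPM, 2.03-fold (1.75 to 2.37), but 1.39-fold with clusters weighted alike and 1.45-fold in thinned cells.

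**Figure D2:**
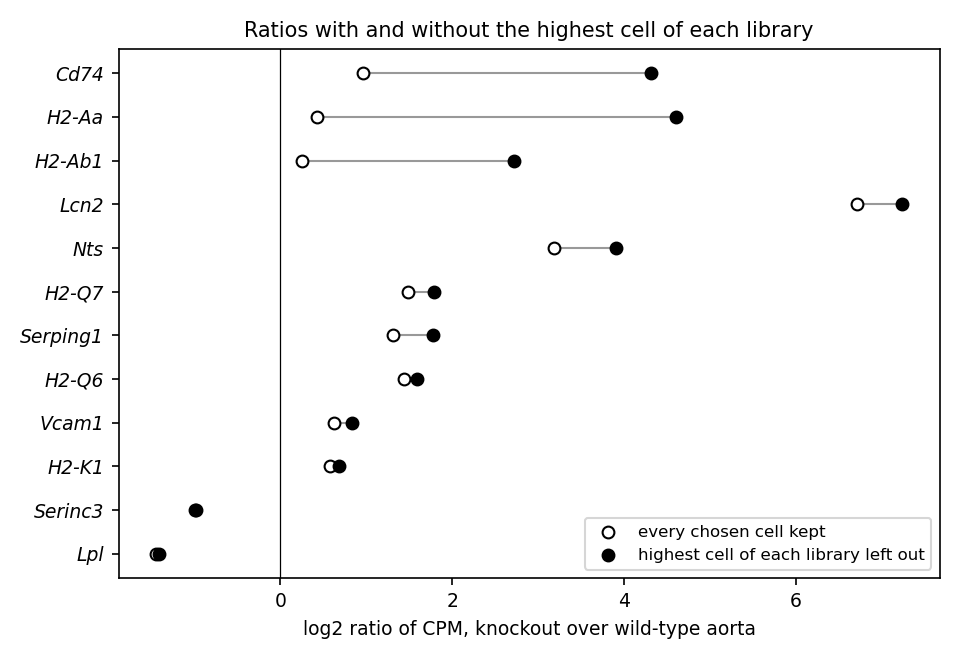
Log2 ratio of knockout over wild-type CPM (horizontal) for 12 genes, with every selected cell kept (open circles) and with the highest cell of each library left out for each gene (filled circles). Cd74 moved from 1.94-fold to 19.8-fold and H2-Aa from 1.35-fold to 24.2-fold, while the circles of Serinc3 and Lpl nearly coincide.

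Complement and acute-phase genes came next. Serping1, the inhibitor of complement component C1, was at 32.6 and 111.4 CPM, 3.42-fold (2.33 to 5.20), and had a UMI in 2.39% and 8.45% of thinned cells. It was also found in 1 of 7 and 10 of 25 smooth muscle-like barcodes. Of the fibroblast markers, Dcn and Lum were higher in the knockout library, while all the others together had 795.4 and 846.8 CPM. Without the cells that had 2 or more markers of another cell type, the Serping1 ratio was 2.54. Lbp, which hands bacterial lipopolysaccharide to its receptor, was at 28.8 and 78.5 CPM, 2.72-fold (1.81 to 4.28), and 1.70-fold with clusters weighted alike. Lcn2, a secreted protein that captures bacterial iron carriers, had 1 UMI in the wild-type and 679 in the knockout cells, a ratio of 151 (27.0 to 5974). A single knockout cell held a further 260 Lcn2 UMIs, 27.7% of the total, and 0.683% and 3.63% of thinned cells had a UMI. Lcn2 leads cluster 9, which held 3.43% of the wild-type and 9.18% of the knockout cells and is also led by Acta2, Dcn and Ccl5. All 95 wild-type Ccl5 UMIs were in 1 cell, and the knockout cells had 3. The Lcn2 ratio was 27.0 with clusters weighted alike, a setting that leaves cluster 9 out altogether. It was 34.4 in thinned cells, 66.1 when CPM was averaged over cells and 80.8 with the same share of cells left out of both libraries. Of 8 measured members of the complement and acute-phase list 2 were higher (Serping1, Lcn2), 25% against 4.26% of all measured genes. None was lower.

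Genes that recruit leukocytes were higher in the pooled library but not in each kind of cell. Vcam1, the adhesion molecule for monocytes and lymphocytes, was at 1067 and 1896 CPM, 1.78-fold (1.66 to 1.90), and in 44.7% and 55.3% of thinned cells (54.3% and 69.0% before thinning, 0 of 7 and 2 of 25 smooth muscle-like barcodes). Selp, the rolling receptor P-selectin, was at 196.8 and 320.6 CPM, 1.63-fold (1.39 to 1.92). When the 7 clusters were weighted alike the Vcam1 ratio was 1.22 and that of Selp 0.814. Vcam1 was higher in 3 and lower in 3 of the 6 clusters where it was measured, and Selp lower in 5 of 6. Cluster 4, led by Cxcl2 and Fos, had 1287 and 3151 CPM of Vcam1, while cluster 8, led by Alpl, had 1531 and 837.2 CPM. The chemokine Cxcl12 was at 112.9 and 177.1 CPM, 1.57-fold, but 1.04-fold without cells that had 2 or more markers of another cell type and under 1.5-fold in 4 further settings. Icam1 lay within 1.5-fold at 339.9 and 444.1 CPM. Of 15 measured members of the leukocyte adhesion and inflammation list 4 were higher, 26.7% against 4.26% of all measured genes, and none was lower. The last of the 4 was Cxcl2 at 72.6 and 111.6 CPM, which was at 1.14-fold with every cell kept.

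Of 13 measured interferon-stimulated genes 2 were higher (15.4%, against 4.26% of all measured genes), Ifi27l2a (57.5 and 115.0 CPM) and Gbp7 (43.8 and 72.0 CPM), and none was lower. The log2 ratio was above 0 for 10 of the 13, with a median of 0.38. Isg15 and Irf1 lay below 1 at ratios of 0.710 and 0.755.

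**Figure D3:**
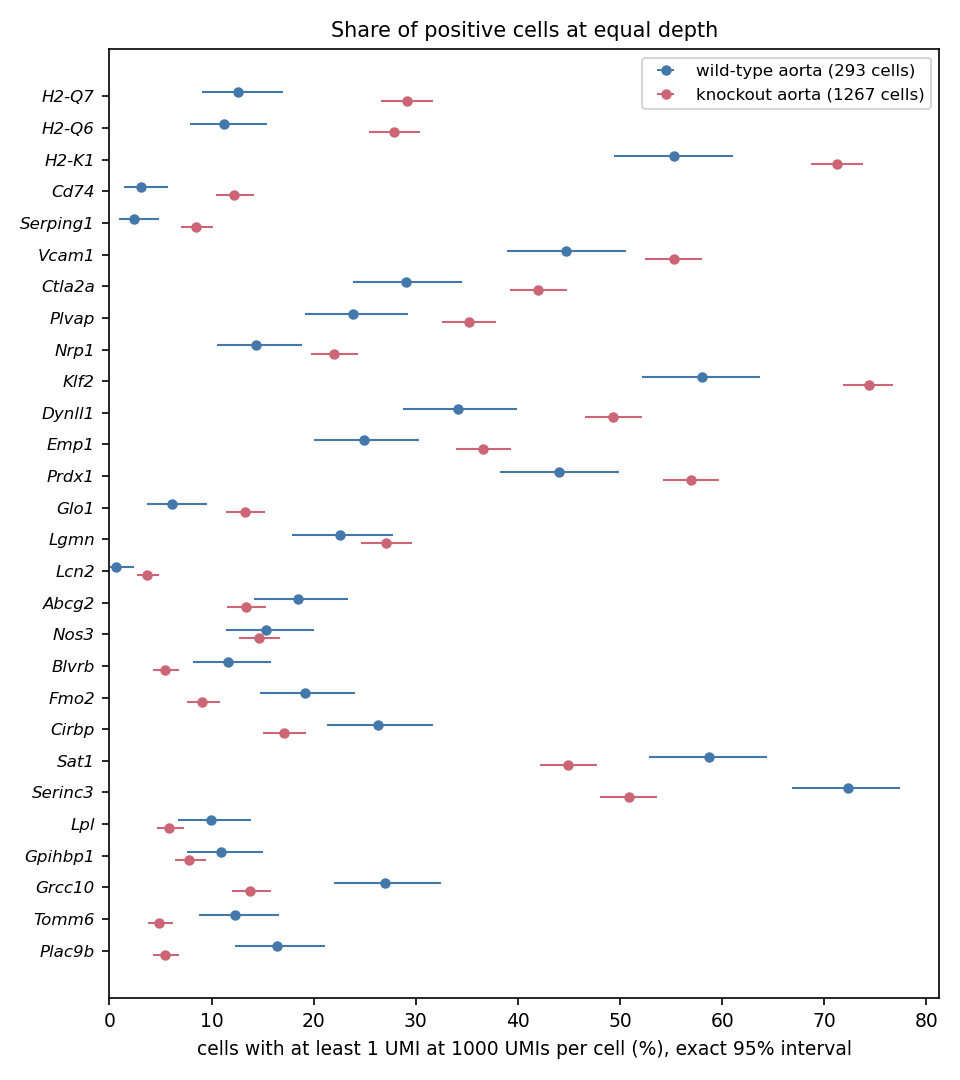
Share of cells with at least 1 UMI (horizontal, percent) after thinning to 1000 UMIs per cell, for 28 genes, in 293 wild-type and 1267 knockout cells, with exact 95% intervals for counting error. The intervals of H2-Q7, H2-K1, Cd74, Klf2 and Serinc3 lie apart, and those of Nos3 overlap.

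Lists of vessel barrier, growth and matrix genes held members past the threshold, the growth and matrix lists in both directions. Of 20 measured junction and permeability genes 2 (10%) were higher (Plvap, Gja4) and none lower. Of 8 VEGF, Tie and apelin genes 1 (12.5%) was higher (Nrp1) and 1 (12.5%) lower (Rgcc, ratio 0.394). Of 21 matrix genes 2 (9.52%) were higher (Emilin1, Col8a1) and 1 (4.76%) lower (Ltbp4). Over all measured genes these shares were 4.26% and 2.08%. Plvap, which forms the diaphragms of fenestrae and caveolae, was at 412.7 and 688.9 CPM, 1.67-fold (1.495 to 1.87), and 1.31-fold with clusters weighted alike. Nrp1, a VEGF and semaphorin co-receptor, had 147 and 1175 UMIs, which is 1.77-fold by CPM (1.49 to 2.12), and 1.48-fold with clusters weighted alike. Igfbp4, which sequesters insulin-like growth factors, was at 137.9 and 294.9 CPM, 2.14-fold (1.77 to 2.60). Without cells that had 2 or more markers of another cell type, Plvap was at 1.24-fold, Nrp1 at 1.44-fold and Igfbp4 at 1.475-fold. Tgfb1, the cytokine TGF-beta 1, was at 97.8 and 172.6 CPM, 1.77-fold (1.41 to 2.24), and higher in all 7 clusters. Emilin1, an elastic fibre protein, was at 70.7 and 134.7 CPM and Col8a1, a short-chain collagen, at 60.0 and 132.9 CPM. With clusters weighted alike both were under the threshold, at 1.42-fold and 1.44-fold. Col8a1 was lower in 3 of 7 clusters and leads cluster 9, which is not among those 7. The fibroblast proteoglycan Dcn, which is a marker of other cells here, was at 59.2 and 685.1 CPM and in 5.46% and 13.7% of thinned cells; its part in the matrix genes was not tested. Of the 19 measured endothelial identity genes 7 had served to choose the cells, Emcn among them. Of the other 12 none was higher and 1 was lower, Sox18, a transcription factor of endothelial specification (101.4 and 61.0 CPM), and their median log2 ratio was 0.04. Neither the 74 measured nuclear oxidative phosphorylation genes nor the 22 immediate early genes had a member past 1.5-fold.

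Flow-responsive genes gave a mixed picture. Klf2, the transcription factor induced by laminar shear, was at 1675 and 2212 CPM, 1.32-fold (1.25 to 1.40), yet had a UMI in 58.0% and 74.4% of thinned cells. Klf4 was at 436.7 and 526.1 CPM, and Nos3, the endothelial nitric oxide synthase, at 197.4 and 163.2 CPM (1.21-fold lower, 1.02 to 1.43). Of 18 measured members 3 were higher (16.7%, against 4.26% of all measured genes): the connexin Gja4 (151.1 and 254.7 CPM), Cxcl12 and the hedgehog ligand Dhh (53.9 and 85.3 CPM). None was lower and 9 lay above and 9 below 0. With clusters weighted alike the Gja4 ratio was 1.08, and in thinned cells that of Dhh was 1.13.

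Serinc3, a membrane protein of the serine incorporator family, was among the more abundant lower genes. It stood at 1475 and 746.7 CPM, 1.98-fold lower (1.85 to 2.11), and in 72.4% and 50.8% of thinned cells (91.1% and 77.6% before thinning). Among the smooth muscle-like barcodes 2 of 7 and 17 of 25 had a Serinc3 UMI. The difference held in all 7 clusters, from 1910 and 659.6 CPM in cluster 3 to 1667 and 1180 CPM in cluster 2. Ltbp4, which stores latent TGF-beta in the matrix, was at 1644 and 1078 CPM, 1.53-fold lower (1.44 to 1.62), and a ratio of 0.701 in thinned cells was short of the threshold. Ctgf, a matricellular protein, was at 225.6 and 100.6 CPM, 2.24-fold lower (1.88 to 2.67), and its ratio was 0.5675 with clusters weighted alike. It leads cluster 1, which held 28.3% of the wild-type and 12.2% of the knockout cells, and was at 453.2 and 387.4 CPM within it. Cirbp, a cold-inducible RNA-binding protein, was at 292.3 and 166.1 CPM, 1.76-fold lower (1.52 to 2.04), with a ratio of 0.678 in thinned cells.

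Lower genes also included some of heme and lipid metabolism. Blvrb, which reduces biliverdin, was at 109.4 and 63.5 CPM, 1.72-fold lower (1.35 to 2.19). Abcg2, an exporter of heme and porphyrins, was at 206.0 and 148.6 CPM, 1.39-fold lower (1.17 to 1.64), short of the threshold, and with clusters weighted alike its ratio was 0.911. Hmox1, the heme-degrading enzyme, had 6 and 41 UMIs, too few to be measured. Both ferritin chains were level, Fth1 at 4137 and 4028 CPM. None of the 7 measured heme and iron genes was past 1.5-fold on the higher side. The wild-type library held nearly all haemoglobin UMIs in 1 cell. With mitochondrial, ribosomal protein and haemoglobin genes left out of the denominator the Blvrb ratio was 0.571, against 0.580 with them. Any other part of that cell in these values was not tested.

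Genes of capillary endothelium had the lowest median of the 28 lists, and some of them handle lipids. Lpl, lipoprotein lipase, was at 186.1 and 69.9 CPM, 2.66-fold lower (2.18 to 3.25). Gpihbp1, the endothelial anchor of that lipase, was at 356.1 and 179.3 CPM, 1.99-fold lower (1.73 to 2.27), and the fatty acid transporter Cd36 at 365.7 and 222.4 CPM, a ratio of 0.608 (0.534 to 0.694). Of 10 measured capillary genes 6 were lower (also Rgcc, Car4 and Cd300lg), 60% against 2.08% of all measured genes. None was higher, and the median log2 ratio was -0.82. Of the 16 measured fatty acid handling genes 4 (25%) were lower (Lpl, Gpihbp1, Cd36 and Pnpla2) and none higher, with a median of -0.05. Of the 6 lower capillary genes 5 lead cluster 3, which held 16.6% of the wild-type and 7.29% of the knockout cells. Within cluster 3 Gpihbp1 was at 3865 and 4104 CPM, Car4 at 905.6 and 837.6 CPM and Lpl at 1704 and 1136 CPM. With the 7 clusters weighted alike the ratios were 1.07 for Gpihbp1, 0.937 for Car4, 0.636 for Lpl, 0.815 for Rgcc and 1.02 for Cd36. In cells pooled across the aorta, fewer capillary-like cells and less RNA per cell cannot be told apart, and the cluster's own genes helped to form it.

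**Figure D4:**
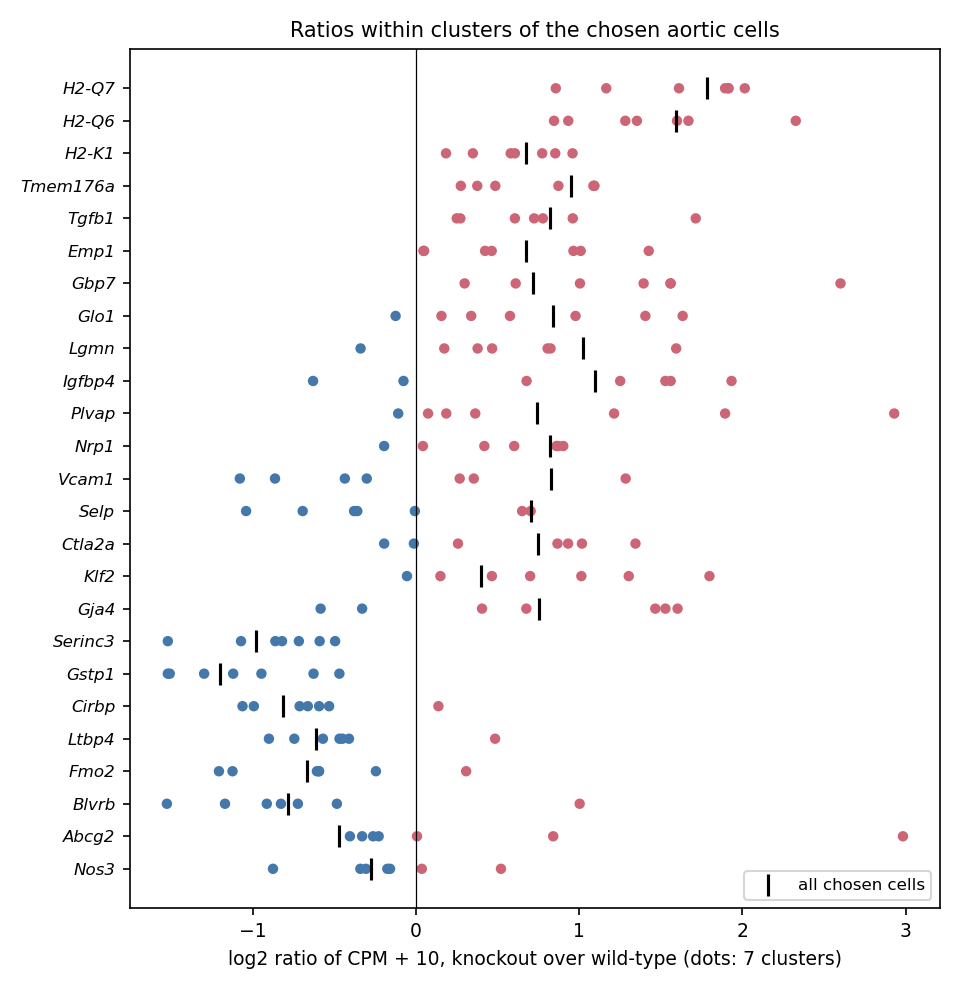
Log2 ratio of knockout over wild-type CPM + 10 (horizontal) for 25 genes within each of 7 clusters (dots, red above 0 and blue below) and over all selected cells without adding 10 (black bars). All 7 dots of H2-Q7, H2-Q6 and H2-K1 lie above 0 and all 7 of Serinc3 and Gstp1 below, whereas those of Vcam1 and Selp lie on both sides.

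Several of the largest lower ratios belonged to genes whose 3′ ends cannot be told from other genes. Plac9b, of unclear role, was at 201.7 and 57.7 CPM with 100% of its last transcript bases shared, and Nme2, a nucleoside diphosphate kinase, at 133.9 and 51.6 CPM with 98.0%. Tomm6, a small subunit of the mitochondrial import pore (125.4 and 53.3 CPM), and Gstp1, a glutathione transferase (213.3 and 92.9 CPM), shared 64.9% and 53.0%. At least 50% of the 3′ end was shared by 12 of 59 lower genes with a known transcript, by 2 of 122 higher genes and by 3.13% of all measured genes. The sources used here do not say how the counting divided such reads, so these 12 levels are uncertain. Serinc3, H2-Q7, Cd74, Serping1 and Lpl shared none.

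Pou5f1 lies in the MHC on chromosome 17, at 35506018 to 35510772 on the plus strand of mm10 (GENCODE M21), and several of the genes above are its neighbours. Within 5 Mb of its start 47 genes were measured, of which 5 were higher (Glo1, H2-K1, H2-Q6, H2-Q7, Znrd1) and 2 lower (H2-T23, AY036118), 14.9% against 6.33% of all measured genes. On all of chromosome 17 it was 10.4% of 154. Measured from the start of Pou5f1, H2-Q7 starts at -0.0669 Mb, H2-Q6 at -0.0812 Mb and Glo1, a detoxifier of methylglyoxal, at -4.88 Mb. Glo1 was at 80.8 and 144.9 CPM, 1.79-fold (1.40 to 2.33), and 1.22-fold without cells that had 2 or more markers of another cell type. The labels give 1 strain name for all mice. Whether a segment around the targeted gene differs in strain between genotypes was not tested.

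**Figure D5:**
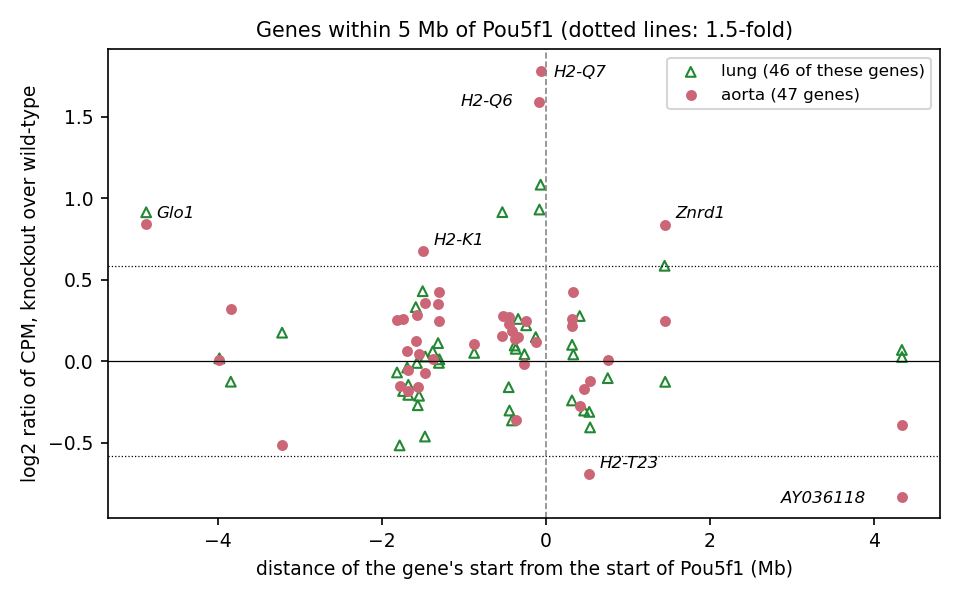
Log2 ratio of knockout over wild-type CPM (vertical) against the distance of a gene's start from that of Pou5f1 (horizontal, Mb), in the aorta (filled circles, 47 genes) and the lung (open triangles, 46 of these). H2-Q7 and H2-Q6 beside Pou5f1 and Glo1 at -4.88 Mb lie above the 1.5-fold line in both tissues.

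The lung libraries, which took no part in the choice of aortic genes, were read beside the aorta for the same genes. In the lung 2.08% of 3176 measured genes were past 1.5-fold on the higher side and 2.3% on the lower side. The median lung log2 ratio was -0.04 over the 3162 of them that the aortic libraries also list. Of the 123 genes higher in the aorta 83 were measured in the lung, 6 were at least 1.5-fold higher there (Cd74, Emp1, Glo1, H2-Q6, H2-Q7, Tgm2), none at least 1.5-fold lower, and 52 had the same sign. H2-Q7 was at 511.1 and 1083 CPM in the lung, 2.12-fold (1.92 to 2.34), in 38.9% and 65.3% of thinned cells. Cd74 was at 132.7 and 619.9 CPM, 4.67-fold (3.94 to 5.57), and Glo1 at 75.9 and 143.0 CPM, 1.89-fold (1.44 to 2.48). Emp1, an epithelial membrane protein, was at 321.5 and 518.8 CPM in the lung beside 364.8 and 581.9 CPM in the aorta. H2-K1 lay within 1.5-fold in the lung at 1958 and 2637 CPM, and Serping1 was nearly absent there with 5 and 1 UMIs. Of the 60 genes lower in the aorta 47 were measured in the lung and 4 were at least 1.5-fold lower there (Cirbp, Hotairm1, Pnpla2, Sult1a1), with 3 at least 1.5-fold higher (Nme2, Rpl10-ps3, mt-Atp8) and 30 of the same sign. The counts of the same sign were not set against the share of all lung genes on each side of 0, so they do not show agreement. Cirbp was at 290.1 and 179.3 CPM in the lung. Abcg2, within 1.5-fold in the aorta, was at 188.5 and 115.2 CPM in the lung, and Serinc3 at 2686 and 2217 CPM, a lung ratio of 0.825. The mice of both tissues were the same per the labels, so the lung adds no animals, and the difference between tissues was not tested.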

How the data were processed

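Matrices of whole-number UMI counts per gene and barcode were deposited by the authors, unnormalized; Cell Ranger and mm10 are named per the submitters' processing notes, with versions not given in the sources used here. Lung rows, named by Ensembl identifier, were matched to GENCODE M21 (31011 of 31053). CPM, shares of cells and exact 95% intervals (conditional for ratios, Clopper-Pearson for shares) were computed with scipy 1.17.1; intervals cover counting error only. A gene counted as measured from a mean of 50 CPM upwards and 30 UMIs in both libraries together. Clusters came from scanpy 1.11.5 (2000 variable genes, 30 principal components, 15 neighbours, Leiden resolution 1). Doublets were not removed; Scrublet called 5 and 5 aortic barcodes (0.8% assumed per 1000 barcodes). Shared 3′ sequence is the percent of 50-mers of the last 300 transcript bases found in transcripts of another gene. Ratios and intervals were tested on simulated data in which a gene had the same rate in every cell of a library. The intervals assume this, and it leaves out the spread between cells seen here, so the simulation does not check them for these data.

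The members and gene lists were chosen with earlier results of these data known. Genes were named by a rule. Leaving out mitochondrial, ribosomal protein, haemoglobin and unnamed genes and markers of other cells, it took the 15 highest and 15 lowest by the interval bound nearest to 1, the 8 largest rises and 8 largest falls of the thinned share, up to 2 members each way of each of 28 lists, genes past 1.5-fold within 5 Mb of Pou5f1, and 15 fixed genes. Genes named otherwise (B2m, H2-D1, Dcn, Cd36, Tap2, Psmb9, Tapbp, Isg15, Irf1, Fth1, Cd300lg and those listed for the lung, promoters or markers) were added after their values were seen, as members of a list or marker set. Some genes that the rule or the lists hold are not reported here. Alternatives were 14, of which 2 were added after seeing the data.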

Additional observations from a re-analysis of the deposited data

Results flagged for a closer look

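Nme2 had opposite ratios in the 2 tissues: its log2 ratio of knockout over wild-type CPM was -1.38 in the aorta (133.9 and 51.6 CPM) and 0.81 in the lung (40.9 and 71.5 CPM, from 54 and 63 UMIs). The difference was not tested, each value rests on 1 library per genotype, and 98.0% of the 3′ end of Nme2 is shared with other genes.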

How the results depend on the processing

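With 123 genes higher and 60 lower as the reported counts, a mean of at least 20 CPM gave 401 and 206 of 5553 genes and at least 100 CPM gave 44 and 34 of 1492, since more or fewer low genes were measured. Thinning to 1000 UMIs gave 247 and 119 (71 and 41 of the reported genes among them). Leaving out the 140 and 666 cells with 2 or more markers of 1 other cell type gave 220 and 129 (65 and 52 among them). Both use fewer UMIs, and other causes were not tested. The mean of per-cell CPM gave 107 lower genes; the cause was not tested. The other alternatives gave counts within 1.5 times the reported ones, and clusters weighted alike kept 48 and 35 of the reported genes. Of 604 values of 55 named genes past 1.5-fold under 11 settings, 523 moved by less than their counting interval, 79 moved by more and 2 reversed, both with clusters weighted alike (log2 ratios of 0.10 for Gpihbp1 and -0.30 for Selp). No paired analysis was possible because each genotype is 1 library per tissue. Depth limits the wild-type side: it holds 872575 UMIs, and the genes under 50 CPM were left unmeasured.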
